A study of Mus musculus with 12 samples.

Results

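The non-clustered delta protocadherins are described here from accessible chromatin at 9 genes, Pcdh1, Pcdh7, Pcdh8, Pcdh9, Pcdh10, Pcdh17, Pcdh18, Pcdh19 and Pcdh20, of 21938 protein-coding genes. The genes were chosen by family. Their domains were selected on called positions, so that a domain belonged to a gene when it overlapped the transcription start site (TSS) ± 1 kb, overlapped the gene body, or had that gene as its nearest protein-coding TSS. These rules gave the 9 genes 311 of 94875 domains in EB, 258 of 87916 in progenitors, 270 of 88806 in no Dox, 333 of 91181 in iHoxc6, 174 of 56232 in iHoxc10 and 274 of 63504 in iHoxc9. Because called positions chose the domains, the number, width and position of domains are given as a description, with no test.

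ATAC-seq, in which a transposase cuts open chromatin, was run on mouse embryonic stem cells differentiated as embryoid bodies towards motor neurons, with 12 samples in 6 groups of 2. EB and progenitors came from the parental line Ainv15(iCre), the first before patterning and the second after 2 days with 1 µM retinoic acid and 0.5 µM SAG, which activates Hedgehog signalling. At day 4 of the same treatment, iHoxc6, iHoxc9 and iHoxc10 came from lines Ainv15(iFlag.Hoxc6), Ainv15(iFlag.Hoxc9) and Ainv15(iFlag.Hoxc10), in which doxycycline (Dox, 3 µg/mL) switched on a Flag-tagged Hox transgene for the last 48 h. The day 4 control without Dox (no Dox) came from the iHoxc6 line. Each line carried its transgene as a single copy at the HPRT locus. The authors deposited 1 list of accessible domains per group, made from both samples, so there was no spread between replicates and no test could be run. Every difference below is a difference between 2 lists.

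Delta protocadherins are single-pass cell adhesion proteins with cadherin repeats outside the cell, and many bind the same protein on a neighbouring cell. They are known for combinatorial expression in the nervous system, where they sort neurons, guide axons and shape synapses. The delta-1 group (Pcdh1, Pcdh7 and Pcdh9) has a tail that can bind protein phosphatase 1. In the delta-2 group (Pcdh8, Pcdh10, Pcdh17, Pcdh18 and Pcdh19), several tails recruit the WAVE complex, which drives branched actin assembly. Pcdh20 is a related gene outside both groups.

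All 9 genes had an accessible TSS window in each of the 6 lists, as did 56.1% of all protein-coding genes. The TSS itself was covered in every list at Pcdh8, Pcdh9, Pcdh10, Pcdh17, Pcdh18 and Pcdh19. At Pcdh20 it was covered in EB alone. At Pcdh7, the TSS was covered in EB, no Dox and iHoxc6 and lay outside any domain in progenitors, iHoxc9 and iHoxc10. Base composition before the TSS also set Pcdh20 apart. The 200 bp upstream of its TSS had a GC content of 42.5% and a CpG observed-to-expected ratio of 0.22. Across the other 8 genes these values ran from 52.5 to 71% and from 0.63 to 0.94, and the medians over all genes were 55% and 0.50. The sequences of Pcdh10, whose TSS lay inside the widest domain of the family, and of Pcdh20 show this contrast. Both are 5′ to 3′ on the strand of the gene (GRCm38, mm10), with capitals for matches to the homeodomain core TAAT or to ATAAA on either strand, so that ATTA and TTTAT are matches too.
Pcdh10 (chr3:45378198-45378397, plus strand): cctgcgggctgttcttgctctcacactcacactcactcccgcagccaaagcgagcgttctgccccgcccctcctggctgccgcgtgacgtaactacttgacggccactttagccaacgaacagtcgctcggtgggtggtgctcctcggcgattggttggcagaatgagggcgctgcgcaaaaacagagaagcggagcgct
Pcdh20 (chr14:88471397-88471596, minus strand): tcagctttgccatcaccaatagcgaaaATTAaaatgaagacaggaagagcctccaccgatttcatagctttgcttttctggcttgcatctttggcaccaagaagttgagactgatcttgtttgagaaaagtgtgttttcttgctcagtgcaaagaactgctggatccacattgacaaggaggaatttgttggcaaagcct

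The window before the Pcdh10 TSS held 0 matches to TAAT and 0 to ATAAA, and that of Pcdh20 held 1 and 0. Over all genes, 44.1% of such windows held TAAT, 28.3% held ATAAA and 0.506% held TGATTTAT, the composite of a cofactor site with the posterior Hox core.

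Accessible length in the TSS window of 2001 bp is given for each gene in the order EB, progenitors, no Dox, iHoxc6, iHoxc9 and iHoxc10. Of the delta-1 genes, Pcdh7, which takes part in growth of retinal axons, showed the widest spread, at 1434, 494, 1785, 1102, 366 and 346 bp. Its window was therefore long in EB, no Dox and iHoxc6 and short in the other three. In iHoxc10 the covered bases all lay upstream of the TSS (346 bp upstream and 0 bp downstream), whereas no Dox covered 1000 and 784 bp. Pcdh1, known from epithelia and brain, had 623, 1191, 1635, 1517, 919 and 1453 bp. EB was the shortest of these lists at Pcdh1, and the TSS lay outside any domain in EB, iHoxc6 and iHoxc9. Pcdh9, a neuronal member, covered 1118, 1147, 1420, 1288, 1263 and 917 bp and kept most of this length upstream of the TSS, from 815 to 1000 bp across the lists.

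Among the delta-2 genes, Pcdh8 (arcadlin), whose product binds the kinase Taok2 and promotes endocytosis of N-cadherin, covered 913, 716, 1393, 886, 673 and 711 bp. Pcdh10, which guides axons through the ventral forebrain, covered 761, 748, 1218, 794, 911 and 513 bp. No Dox held the longest window at both genes, and all other lists lay below 1000 bp. Pcdh17, which recruits the WAVE complex to contacts between axons, covered 674, 912, 1308, 1063, 965 and 1139 bp. Pcdh18, whose product binds the adaptor Dab1, had 656, 968, 1288, 1026, 702 and 991 bp. At both genes EB was the shortest list. Pcdh19, an X-linked gene mutated in a form of epilepsy, covered 875, 643, 1411, 788, 564 and 578 bp, so that no Dox stood well above the other lists. Pcdh20 differed in order. It covered 787, 535, 608, 372, 463 and 345 bp, with EB as its longest list, and downstream of the TSS alone in all lists after EB.

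**Figure D1:**
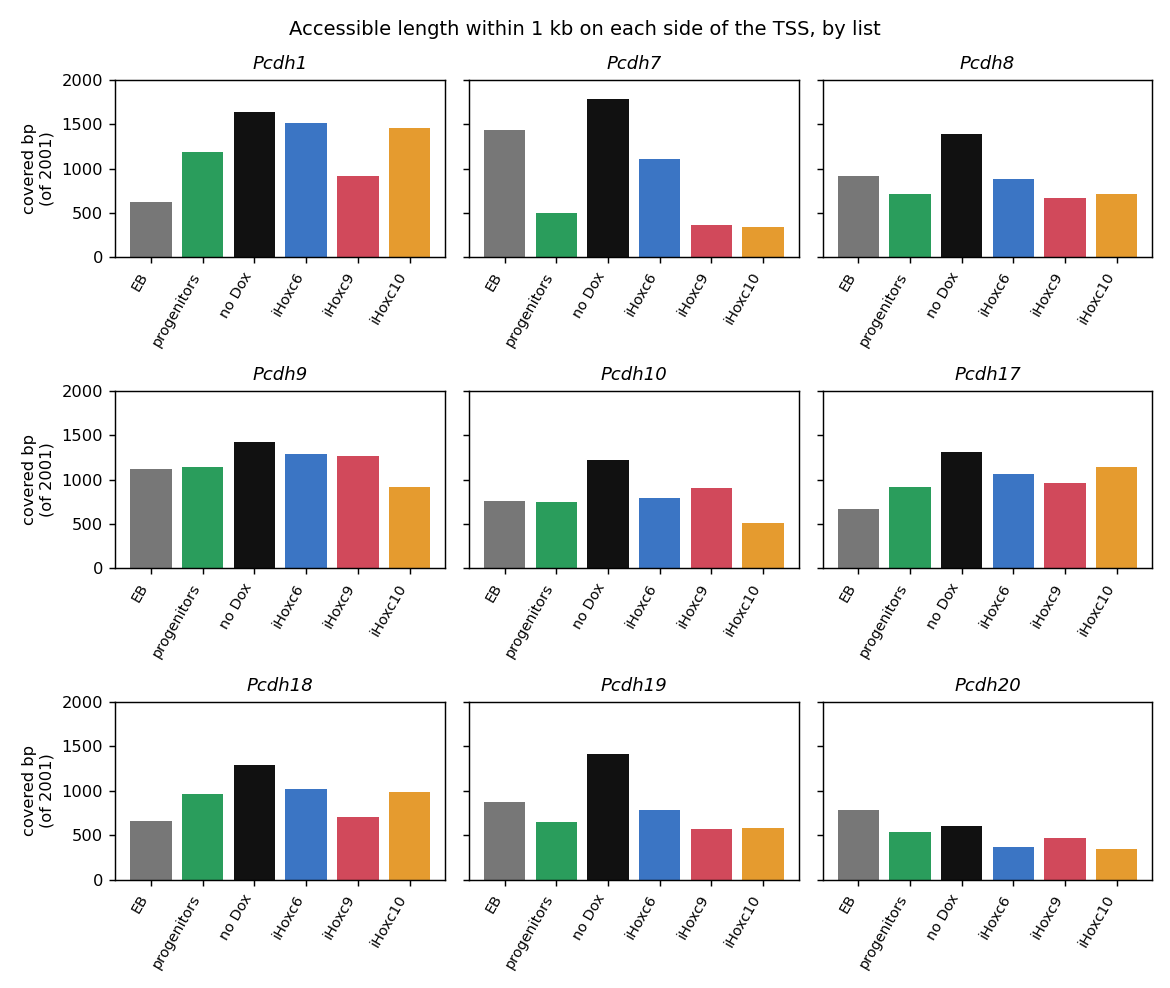
Accessible length (bp, of 2001) within 1 kb on each side of the TSS of each gene, with 1 bar per list and no error bars because each group had 1 list. No Dox is the tallest bar at 8 genes and EB at Pcdh20, and the Pcdh7 bars run from 346 to 1785 bp.

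The TSS window was longest in no Dox at 8 of the 9 genes, against 54.1% of 12208 genes with a covered window, so that this order was common in the genome. No Dox was also the list with most covered sequence (29.7 Mb, against 17.8 to 25.7 Mb in the others). With no Dox left out, EB held the longest window at 4 genes (Pcdh7, Pcdh8, Pcdh19 and Pcdh20), iHoxc6 at 3 (Pcdh1, Pcdh9 and Pcdh18), and iHoxc9 (Pcdh10) and iHoxc10 (Pcdh17) at 1 each. Over 11933 genes with a covered window, EB was longest at 16%, iHoxc6 at 23%, iHoxc9 at 5.53% and iHoxc10 at 12.7%. Progenitors were longest at 41.5% of these genes and at 0 of the 9. The widest single TSS domains of the family were found in no Dox. They measured 2938 bp at Pcdh10, of which 2720 bp lay upstream of the TSS, 2576 bp at Pcdh8, of which 2183 bp lay downstream, and 2019 bp at Pcdh7. The TSS regions of Pcdh7 and Pcdh10 also overlapped exons of non-coding transcripts (4932441J04Rik and 2610316D01Rik), and that of Pcdh8 an exon of the antisense gene Gm9748, so domains there belonged to either gene. Just inside the window limit lay a Pcdh7 domain of EB, 986 bp from the TSS and 222 bp wide, and just outside a Pcdh19 domain of iHoxc6, 1147 bp away and 41 bp wide.

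The family occupied some of the widest gene-poor stretches of the genome. Measured from the previous to the next protein-coding TSS, the gaps around Pcdh7 (7810 kb), Pcdh9 (7410 kb) and Pcdh17 (7157 kb) ranked 1, 2 and 3 of 21938 genes, and that around Pcdh20 (6474 kb) ranked 5. Pcdh10 (4706 kb), Pcdh19 (4101 kb) and Pcdh18 (3995 kb) followed at ranks 28, 45 and 52. Pcdh8 (322 kb) and Pcdh1 (251 kb) had much narrower gaps, although the median gene had 95.1 kb. Pcdh8, Pcdh9, Pcdh17 and Pcdh20 lay on chromosome 14, Pcdh10 and Pcdh18 on chromosome 3, and Pcdh7, Pcdh19 and Pcdh1 on chromosomes 5, X and 18. The bodies of Pcdh9 (chr14:93013410-93890679, minus strand, 877 kb) and Pcdh7 (chr5:57717967-58133230, plus strand, 415 kb) were the longest, and those of Pcdh20 (6.65 kb) and Pcdh8 (4.54 kb) the shortest.

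Assigned domains were few for the width of these gaps. A domain nearer to a neighbouring TSS went to that neighbour unless it overlapped the member, whereas the whole gap was the denominator. These values are therefore not the density of all domains in a gap. The 9 gaps summed to 42.2 Mb, with the stretch between Pcdh20 and Pcdh9 counted for both. Per 100 kb of this sum, there were 0.736 assigned domains in EB, 0.611 in progenitors and 0.639 in no Dox. The induced lists had 0.789 in iHoxc6, 0.412 in iHoxc10 and 0.649 in iHoxc9. For the 7 genes with gaps of at least 3 Mb, the median per gene ran from 0.335 in iHoxc10 to 0.701 in iHoxc6. The 132 protein-coding genes with such gaps, these 7 included, had medians from 0.454 to 0.878. Density was much higher at Pcdh1, from 3.18 domains per 100 kb in iHoxc9 to 8.75 in EB and in no Dox, and at Pcdh8, from 3.11 in no Dox to 4.04 in iHoxc6. The lowest density was that of Pcdh19, from 0.122 in iHoxc10 (5 domains in all) to 0.415 in EB. Many domains were narrow. The median width was 72 bp in EB, 68 bp in progenitors, 122 bp in no Dox, 49 bp in iHoxc6, 87.5 bp in iHoxc9 and 132 bp in iHoxc10, against 129 to 212.5 bp over the whole lists.

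**Figure D2:**
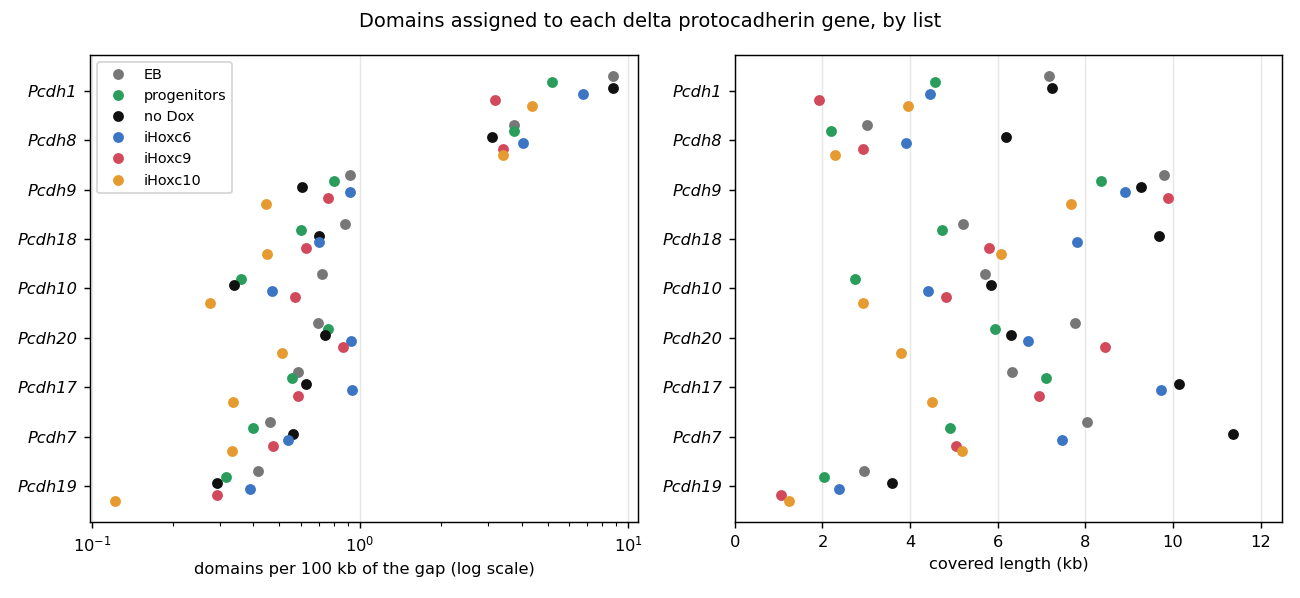
Domains per 100 kb of the gap (left, log scale) and covered length in kb (right) for each gene, with 1 point per list. Pcdh1 and Pcdh8 lie above 3 domains per 100 kb in every list, and the other 7 genes lie below 1.

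Domains of the family made up 0.431% of the iHoxc9 list (95% Wilson interval 0.383 to 0.486%), against 0.328% of EB (0.293 to 0.366%), 0.293% of progenitors (0.26 to 0.331%), 0.304% of no Dox (0.27 to 0.342%), 0.365% of iHoxc6 (0.328 to 0.407%) and 0.309% of iHoxc10 (0.267 to 0.359%). These intervals cover the counting of domains and not the variation between samples, and the lists were not tested against each other. Genes in gaps of at least 3 Mb, these 7 included, had a median of 0.757 domains per 100 kb in no Dox and 0.723 in iHoxc9. Over all genes the median fell from 2.3 to 1.59, so a smaller fall in iHoxc9 was common to genes in such gaps. When each list was held to its 56232 widest domains, iHoxc9 held most domains of the family, with 226. The others held 142 in progenitors, 152 in no Dox, 154 in EB, 155 in iHoxc6 and 174 in iHoxc10. This cut takes more narrow domains from longer lists, so the order depends on list length. With domains of at least 150 bp in every list, iHoxc9 had 98. EB had 122, no Dox 119, iHoxc6 106, progenitors 85 and iHoxc10 78. Most domains lay far from the TSS. In EB, 36.3% were at least 1000 kb away and 5.47% within 1 kb, and in iHoxc9 these shares were 35 and 5.84%. The farthest merged region lay 2678 kb from the TSS of Pcdh20. The Pcdh20 body of 6.65 kb held 1 domain in EB, 3 each in progenitors, no Dox and iHoxc6, and 4 each in iHoxc9 and iHoxc10.

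**Figure D3:**
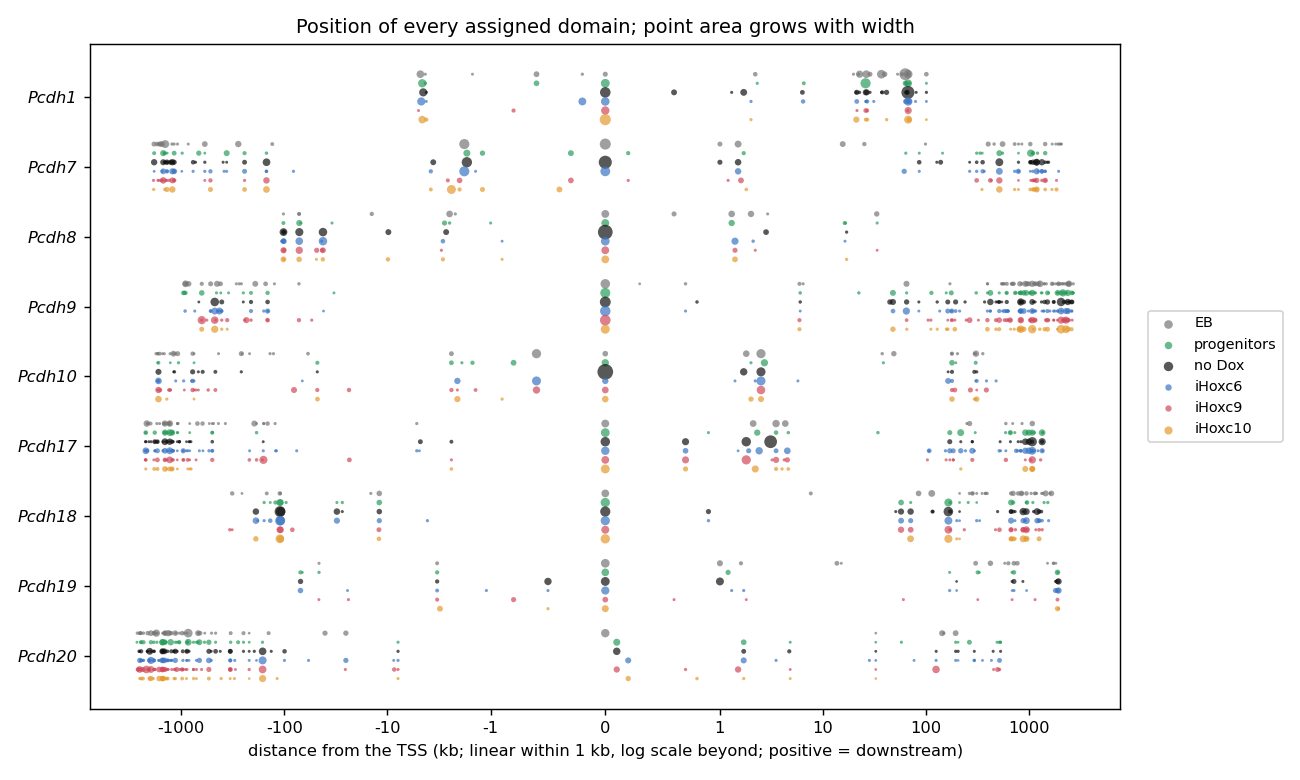
Distance of each domain from the TSS in kb, linear within 1 kb and on a log scale beyond, with upstream to the left, 1 row of points per list and point area growing with width. All genes have domains at or next to the TSS, and most other domains of the 7 genes in wide gaps lie beyond 100 kb, up to 2678 kb.

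Covered length, the summed width of all domains of a gene, was compared between lists to ask how accessibility of the family moved with patterning and with each Hox factor. A gene was counted as higher or lower when it differed at least 2-fold and the longer list covered at least 500 bp, a limit that all 9 genes passed. Against EB, progenitors covered less at 8 of the 9 genes. The median ratio was 0.73, whereas all genes had a median of 1.11 and 39.1% of them had a ratio below 1. Pcdh10 was lower by the 2-fold limit (5706 bp in EB and 2734 bp in progenitors), as were 7.64% of all genes. No family member was higher, against 8.75% of all genes. Pcdh17 alone was longer in progenitors (7096 bp, against 6319 bp in EB). The other 124 genes in gaps of at least 3 Mb, a set chosen after the data had been seen, had a median ratio of 1.13 with 42.7% below 1. In the TSS window Pcdh7 was lower (0.34-fold, with 3.45% of all genes lower) and no member was higher (6.69% of all genes).

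From progenitors to no Dox, covered length was greater at 9 of 9 genes, with a median ratio of 1.77 against 1.14 over all genes, of which 68.9% were above 1. Pcdh8 went from 2195 to 6191 bp, Pcdh7 from 4908 to 11376 bp, Pcdh10 from 2734 to 5836 bp and Pcdh18 from 4733 to 9679 bp, and these 4 genes were higher by the 2-fold limit. Of all genes, 5.52% were higher and 2.61% lower. As a share of each list, 2 members were higher in place of 4, and over all genes 444 were higher and 612 lower in place of 859 and 406. The number of genes tested on this scale is not given, so the members cannot be set beside a share of all genes. The other genes in gaps of at least 3 Mb had a median of 1.18. Pcdh9 and Pcdh20, by contrast, stayed close to progenitors at ratios of 1.11 and 1.06. In the TSS window, Pcdh7 (3.61-fold) and Pcdh19 (2.19-fold) were higher, as were 3.65% of all genes, and no member was lower (1.72% of all genes). Cell line, sample series and possibly calling settings differed between these lists and cannot be told apart from time. The no Dox list has a smallest distance between domains of 37 bp, whereas it is 103 bp in progenitors and wider still in the rest.

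Progenitors and the 3 induced groups share a run name in their labels, which no Dox does not carry, so the step from day 2 to day 4 was also viewed without no Dox. This comparison was added after the data had been seen. In iHoxc6, covered length was above progenitors at 8 of 9 genes, with a median ratio of 1.37 against 0.94 over all genes. Of all genes, 40.9% were above 1. Pcdh8 had 1.78 times the progenitor length, Pcdh18 1.65 times, Pcdh10 1.61 times and Pcdh7 1.52 times, which are the genes that passed the limit in no Dox. The median ratio was 1.18 in iHoxc9, against 0.70 over all genes, and 0.92 in iHoxc10, against 0.80. These comparisons share the progenitor list, and the cell line differed in each.

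**Figure D4:**
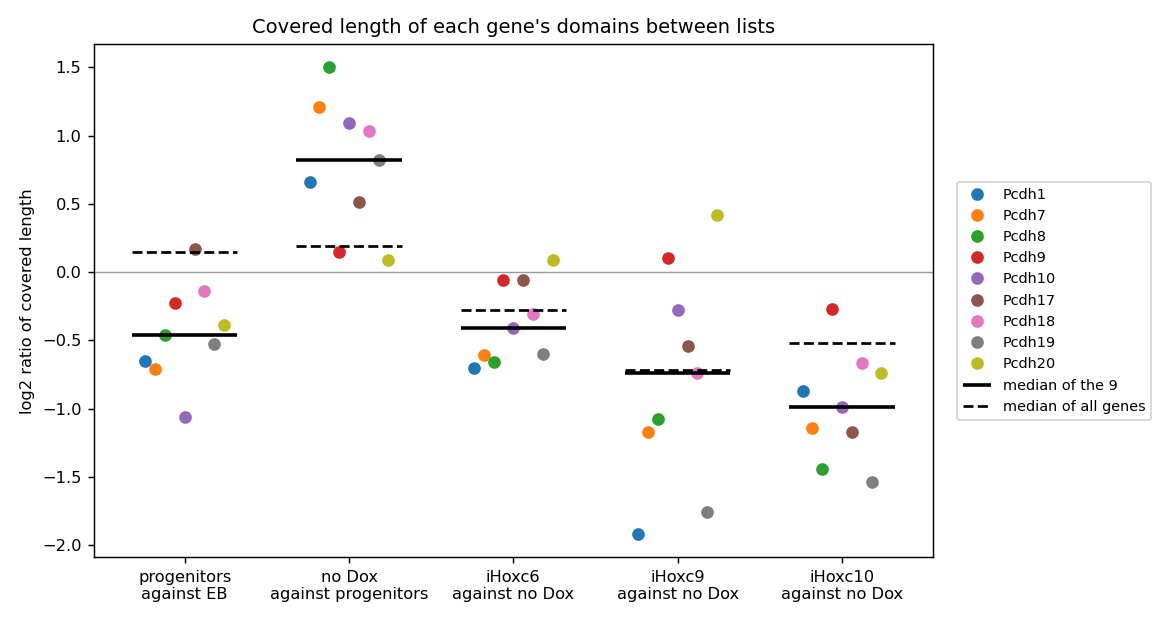
Log2 ratio of covered length between 2 lists for each gene (points), with the median of the 9 genes (solid line) and of all genes (dashed line). Progenitors lie below EB at 8 genes, no Dox lies above progenitors at all 9, and Pcdh20 and Pcdh9 are the 2 points above 0 for iHoxc9.

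Relative to no Dox, the 3 induced lists covered less at most genes of the family and of the genome alike. They share the no Dox list, so their values are given side by side. In iHoxc6 the median ratio was 0.75 (0.83 over all genes), with 0 members lower (4.87% of all genes) and 0 higher (1.01%). In iHoxc9 it was 0.60 (0.61 over all genes), with 4 members lower (31.2% of all genes) and 0 higher (0.489%). In iHoxc10 it was 0.50 (0.70 over all genes), again with 4 lower (17.2%) and 0 higher (0.456%). The share of members lower in iHoxc9 was thus not far from that of the genome. The other 124 genes in gaps of at least 3 Mb had a median ratio of 0.78 for iHoxc9, 0.61 for iHoxc10 and 0.86 for iHoxc6.

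Genes differed within these totals. Pcdh19 covered 3592 bp in no Dox, 2368 bp in iHoxc6, 1060 bp in iHoxc9 and 1235 bp in iHoxc10, and Pcdh1 covered 7229, 4455, 1913 and 3956 bp. Pcdh7, at 11376, 7467, 5045 and 5174 bp, and Pcdh8, at 6191, 3907, 2931 and 2280 bp, were lower in both iHoxc9 and iHoxc10. Pcdh17 was lower in iHoxc10 alone, at 10134, 9724, 6952 and 4495 bp. Pcdh20 and Pcdh9 went the other way in iHoxc9. Pcdh20 had 6309 bp in no Dox and 8447 bp in iHoxc9 (1.34-fold), and Pcdh9 had 9267 and 9898 bp (1.07-fold). Ratios above 1 were found at 5.39% of all genes and at 22.6% of the other 124 genes in gaps of at least 3 Mb, so 2 of 9 was close to the share among genes in such gaps. In iHoxc10 both were below no Dox, with Pcdh20 at 3781 bp and Pcdh9 at 7663 bp. In the TSS window, all 9 members were below no Dox in iHoxc6, iHoxc9 and iHoxc10, as were 81.7, 94.7 and 88.6% of all genes. The median ratios were 0.65, 0.56 and 0.57, against 0.84, 0.70 and 0.79 over all genes. Other genes in gaps of at least 3 Mb had 0.85, 0.79 and 0.79. By the 2-fold limit, iHoxc6 held 0 members lower in this window (4.66% of all genes) and 0 higher (0.683%). In iHoxc9, Pcdh7, Pcdh8 and Pcdh19 were lower (18.8%) and none higher (0.178%), and in iHoxc10, Pcdh7, Pcdh10 and Pcdh19 were lower (10.1%) and none higher (0.477%). Scaling to the length of the lists changes several of these counts. As a share of each list, 0 members were lower in iHoxc10 and 2 in iHoxc9, and 1 was higher in iHoxc9. Over all genes on this scale, 821 were lower in iHoxc10, and 1226 were lower and 523 higher in iHoxc9. Without the number of genes tested, these counts give no share to compare with the members.

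Merging domains that overlapped by at least 1 bp across the 6 lists gave 868 regions, of which 734 were distal, 98 intronic, 18 exonic and 18 in TSS windows. Most, 610 (70.3%), were held by 1 list, against 63.7% of 218562 regions of all genes. The 44 regions in all 6 lists (5.07%, 95% interval 3.8 to 6.74%) compared with 11.2% over all genes and 7.4% of regions of genes whose gaps were at least as wide as the narrowest of the family, a background named below as wide gaps. Of these 44, 9 were the TSS regions, 1 per gene. Pcdh17 and Pcdh20 had 7 other regions in all lists each, and Pcdh19 had 1. Regions held by iHoxc9 alone numbered 95 (10.9%, 9.04 to 13.2%), against 5.31% over all genes and 6.55% in wide gaps. They were found mainly at Pcdh9 (24), Pcdh20 (22), Pcdh17 (15) and Pcdh10 (12), with 0 at Pcdh8. The matching shares were 13.9% for iHoxc6 alone (11.3% over all genes) and 2.19% for iHoxc10 alone (2.95%). With domains of at least 150 bp alone, regions of iHoxc9 alone were 29 of 281 (10.3%, 7.28 to 14.4%), against 3.5% over all genes, and with lists of equal length 83 of 476 (17.4%, 14.3 to 21.1%), against 8.31%. These background values were computed after the data had been seen. Wide gaps began at 251 kb, the gap of Pcdh1, whereas 7 of the 9 genes lay in gaps of at least 3 Mb. No background from gaps of at least 3 Mb is given for these classes or for the motif and repeat shares below. Whether other genes in such gaps share these values therefore cannot be told. Read depth was unknown, and the differences between the family and the background were not tested.

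**Figure D5:**
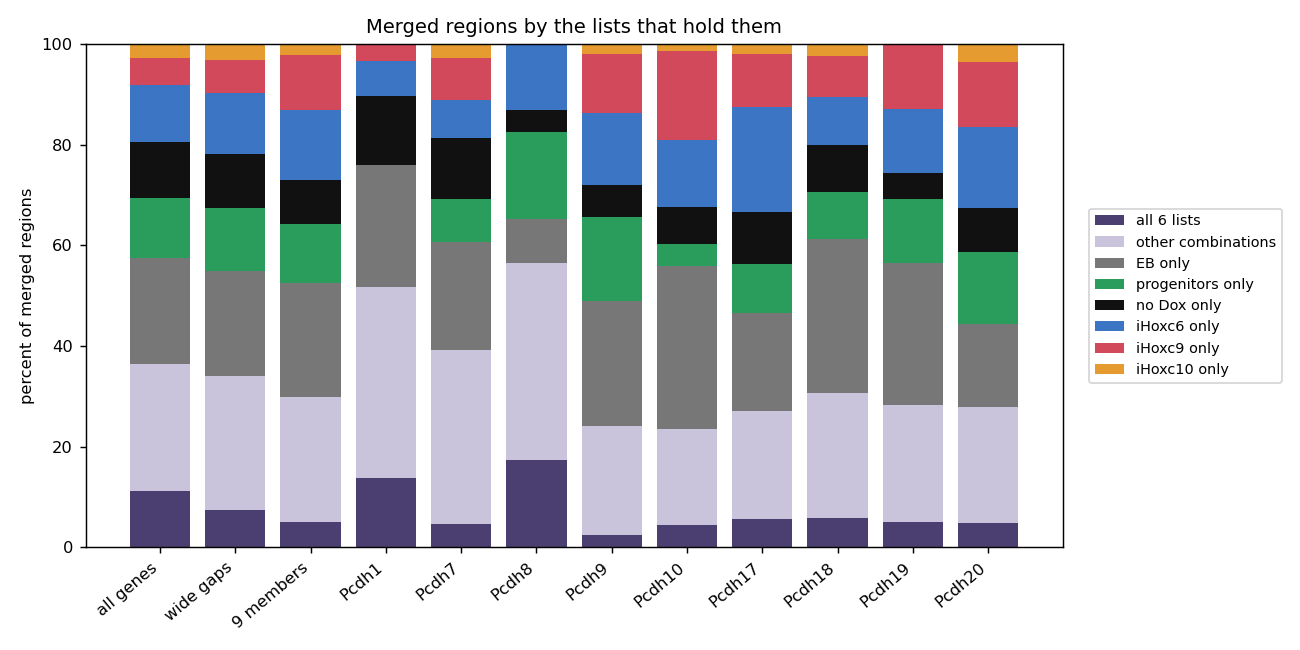
Percent of merged regions by the lists that hold them, for all genes, genes in wide gaps, the 9 genes together and each gene. Regions of iHoxc9 alone take 10.9% in the family and 5.31% over all genes, and regions in all 6 lists take 5.07 and 11.2%.

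Regions absent in EB but held by progenitors and no Dox, called opened at day 2, numbered 57 (6.57%, against 7.51% over all genes). Those absent in EB and progenitors but held by all 4 lists of day 4 numbered 18 (2.07%, against 1.07%). Induction-associated regions, absent in progenitors and no Dox and held by at least 1 induced list, numbered 278 (32%, 29 to 35.2%), against 22.6% over all genes and 25.3% in wide gaps. Pcdh9 had 67 of them, Pcdh20 65 and Pcdh17 55. A smaller set of 36 (4.15%, against 2%) was held by 2 or 3 induced lists, with 10 at Pcdh20, 8 at Pcdh9 and 7 at Pcdh7, and 3 were held by all 3. Many of these regions were narrow, with a median width of 44 bp. With domains of at least 150 bp, induction-associated regions took 21.7% in the family and 14.4% over all genes, and those of 2 or 3 lists took 2.85 and 2.88%. Of 118 regions that progenitors and no Dox both held, iHoxc6 lacked 11 (9.32%, against 11.7% over all genes), iHoxc9 33 (28%, against 27.5%) and iHoxc10 37 (31.4%, against 26.6%). Loss of held regions in the family was therefore close to that over all genes. Induction-associated regions took a larger share than over all genes and in wide gaps, without a comparison to genes in gaps of at least 3 Mb.

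Some of the widest distal regions of each class are named next, with the covered bp in the lists that held them, and all were intergenic in GENCODE. A Pcdh18 region 164 kb downstream of the TSS (chr3:49592617-49593666) opened at day 2, with 723 bp in progenitors, 1050 bp in no Dox, 694 bp in iHoxc6, 665 bp in iHoxc9 and 731 bp in iHoxc10. A Pcdh9 region 2024 kb downstream (chr14:91866028-91866880) followed the same order of lists at 202, 803, 492, 557 and 844 bp. In all 4 day 4 lists, a Pcdh8 region 42.2 kb upstream (chr14:79813478-79814367) covered 813, 811, 505 and 158 bp. A Pcdh9 region 472 kb upstream (chr14:94362953-94363776) covered 824, 508, 622 and 567 bp there. All of these sites had 0 bp in EB, and the day 4 pair had 0 bp in progenitors too.

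Among induction-associated regions, a Pcdh9 region 425 kb upstream (chr14:94315787-94316291) covered 505 bp in iHoxc6 alone. A Pcdh20 region 1635 kb upstream (chr14:90106181-90106500) was held by both posterior factors, at 320 bp in iHoxc9 and 300 bp in iHoxc10. The widest region in all 3 induced lists belonged to Pcdh7, 520 kb upstream (chr5:57197989-57198225), at 143 bp in iHoxc6, 147 bp in iHoxc9 and 230 bp in iHoxc10. Of the regions lost in all 3 induced lists, the widest was a Pcdh17 region 654 kb downstream (chr14:85097154-85097398), with 245 bp in progenitors and 35 bp in no Dox. Another Pcdh17 region, 1327 kb downstream (chr14:85770766-85771344), held 473, 559 and 248 bp in progenitors, no Dox and iHoxc6 and 0 bp in iHoxc9 and iHoxc10. The central 200 bp of the regions that carry these patterns are printed on the plus strand (GRCm38), with TAAT and ATAAA matches on either strand in capitals.
Pcdh18, opened at day 2 (chr3:49593042-49593241): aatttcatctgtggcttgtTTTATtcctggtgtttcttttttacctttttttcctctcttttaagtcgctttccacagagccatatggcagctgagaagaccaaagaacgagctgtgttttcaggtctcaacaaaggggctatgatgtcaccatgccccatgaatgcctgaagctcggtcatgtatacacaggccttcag
Pcdh8, in every day 4 list (chr14:79813823-79814022): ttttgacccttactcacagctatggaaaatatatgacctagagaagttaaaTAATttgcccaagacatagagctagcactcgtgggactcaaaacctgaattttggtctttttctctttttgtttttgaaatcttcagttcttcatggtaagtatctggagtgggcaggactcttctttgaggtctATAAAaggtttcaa
Pcdh7, in all 3 induced lists (chr5:57198007-57198206): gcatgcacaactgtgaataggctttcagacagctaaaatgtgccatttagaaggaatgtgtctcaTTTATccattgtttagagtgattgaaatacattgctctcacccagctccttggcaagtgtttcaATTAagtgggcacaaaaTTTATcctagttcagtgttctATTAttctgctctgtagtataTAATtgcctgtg
Pcdh9, in iHoxc6 alone (chr14:94315939-94316138): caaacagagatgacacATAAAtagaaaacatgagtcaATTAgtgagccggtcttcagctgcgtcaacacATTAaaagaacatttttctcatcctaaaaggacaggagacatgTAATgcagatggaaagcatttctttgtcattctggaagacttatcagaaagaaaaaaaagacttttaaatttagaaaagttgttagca
Pcdh20, in iHoxc9 and iHoxc10 (chr14:90106241-90106440): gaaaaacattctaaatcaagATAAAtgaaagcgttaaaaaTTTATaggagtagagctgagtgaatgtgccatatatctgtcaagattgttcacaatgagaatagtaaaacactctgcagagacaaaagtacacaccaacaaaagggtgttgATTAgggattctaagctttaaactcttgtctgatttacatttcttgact
Pcdh17, lost in all 3 induced lists (chr14:85097176-85097375): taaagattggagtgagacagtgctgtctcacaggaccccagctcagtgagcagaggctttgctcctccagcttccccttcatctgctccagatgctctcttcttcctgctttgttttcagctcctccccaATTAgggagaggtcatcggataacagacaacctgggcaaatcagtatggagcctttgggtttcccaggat

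ATAAA is the core that posterior Hox proteins prefer, and TAAT is the core shared by most homeodomains. The Pcdh20 window of iHoxc9 and iHoxc10 held 2 matches to ATAAA and 1 to TAAT, and the Pcdh9 window of iHoxc6 alone held 1 and 3. The widest distal region of iHoxc10 alone, a Pcdh17 region of 93 bp, held 0 of either. The Pcdh17 window that was lost held 0 matches to ATAAA and 1 to TAAT. The longer TGATTTAT, which contains the reverse complement of ATAAA, had 0 matches in the windows printed here. A match is a description of the letters and does not show binding.

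The same motifs were counted in the central 200 bp of all regions outside TSS windows. At regions narrower than 200 bp this window also held flanking sequence. Induction-associated regions of the family had a median width of 44 bp. The shares therefore describe the windows and not the called domains alone. In the family, 74.7% of 850 regions held TAAT (62.9% over all genes), 48.2% held ATAAA (38.8%) and 2.71% held TGATTTAT (1.54%). Their median GC content was 43%, against 48% over all genes, and AT-rich motifs are more frequent at low GC content. Induction-associated regions of iHoxc9 held ATAAA at 71.3% in the family (92 of 129, 63 to 78.4%) and at 61.6% over all genes. TGATTTAT was present in 13 of these 129 (10.1%, 5.98 to 16.5%), against 4.56% over all genes. In those of iHoxc6 the shares were 58.9% and 2.74%, against 42.2% and 1.53% over all genes. In iHoxc10, 65.8% of 38 regions held ATAAA and 5.26% held TGATTTAT, against 50.5% and 3.26%. TAAT was present in 87.6% of the family's regions in iHoxc9, 82.2% in iHoxc6 and 86.8% in iHoxc10, against 76.3, 67.1 and 70.6% over all genes. Regions of the family opened at day 2, before induction, held ATAAA at 58.9% and TGATTTAT at 1.79% (1 of 56), against 44.7 and 2.62% over all genes. The median GC content was 41% in the family and 44.5% over all genes for iHoxc9, and its part in the motif shares was not tested.

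Repeats, counted after the data had been seen, differed between the classes of regions. A region was taken as repeat when at least 50% of its central 200 bp was lower case in the reference. At narrow regions this window, too, held flanking sequence. By this rule 25.5% of the family's regions outside TSS windows were repeats, against 11.7% over all genes. The share was 41.1% of 287 regions held by EB, 24% by progenitors, 17.2% by no Dox, 19.9% by iHoxc6, 13.4% by iHoxc9 and 16.4% by iHoxc10. Over all genes the same lists had 16.3, 7.78, 7.16, 7.55, 6.22 and 5.39%, so EB was highest genome-wide and the family lay above the background in each list. Regions of EB alone reached 46.5% (92 of 198, 39.7 to 53.4%), against 22.1% over all genes. Those of iHoxc6 alone had 22.3% (11.4% over all genes) and those of iHoxc10 alone 31.6% (6 of 19, 15.4 to 54%, against 8.46%). Those of iHoxc9 alone had 7.37% (7 of 95, 3.61 to 14.4%), close to the 7.73% over all genes. The widest region of 2 or 3 induced lists, at Pcdh20 (chr14:89977018-89977424, with 254 bp in iHoxc9 and 223 bp in iHoxc10), was 79.5% repeat and is not printed. Reads from repeats can map to several places, and how they were treated is not given in the sources used here.

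For each gene, the protein-coding gene with the most similar profile was found from log2(covered bp per 100 kb of the gap + 10) over the 6 lists, as the smallest Euclidean distance. Pcdh9 was nearest to D3Ertd751e (distance 0.34), Pcdh18 to Prrg1 (0.34), Pcdh17 to Prelid2 (0.36), Pcdh7 to Pgr15l (0.40), Pcdh8 to Zfp607b (0.42), Pcdh20 to Cox7c (0.42), Pcdh10 to Cdh10 (0.48), Pcdh1 to Impa2 (0.49) and Pcdh19 to A26c2 (0.62). No gene of the family was nearest to another. Cdh10, the neighbour of Pcdh10 in this measure, is a type II cadherin in a gap of 3.72 Mb. Its covered length per 100 kb was 137, 72.7, 105, 79.8, 115 and 67.2 bp in the order of lists used above, and that of Pcdh10 was 121, 58.1, 124, 93.6, 102 and 62.3 bp.

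Counts are given next for 16 relatives and partners (other protocadherins, N-cadherin, binding partners of the tails and subunits of the WAVE complex). In covered length, Wasf3 was lower in progenitors than in EB (1 of 16, against 7.64% of all genes). Pcdh11x and Cyfip2 were higher in no Dox than in progenitors (2 of 16, against 5.52%). Against no Dox, 0 passed the 2-fold limit in iHoxc6 (4.87% of all genes lower and 1.01% higher). Ppp1ca, Set and Wasf2 were lower in iHoxc9 (3 of 16, against 31.2%), and Pcdh11x in iHoxc10 (1 of 16, against 17.2%). In the TSS window, Pcdh11x was higher in no Dox than in progenitors (1 of 16, against 3.65%). Against no Dox, Pcdh11x and Ppp1ca were lower there in iHoxc9 (2 of 16, against 18.8%). In iHoxc10, Pcdh11x and Taok2 were lower (2 of 16, against 10.1%). Pcdh11x, an X-linked delta-1 protocadherin outside the 9 genes, covered 87, 160, 535, 457, 123 and 0 bp of its TSS window. It thus had its longest windows in no Dox and iHoxc6, as Pcdh19 did among the lists of day 2 and day 4. Cdh2, the gene of N-cadherin, which acts together with Pcdh19, kept a TSS window of 1600 to 1624 bp in all lists. Ppp1ca, the phosphatase bound by delta-1 tails, covered 1048 bp in no Dox, 1083 bp in iHoxc6, 517 bp in iHoxc9 and 896 bp in iHoxc10.

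Markers of the labelled cells were checked in the same TSS windows. Of 4 pluripotency genes, 3 had a covered window in EB, 1 in progenitors and 0 at day 4, with Esrrb at 0 in all lists. Of 4 neural progenitor genes 3 or 4 were covered in every list, and of 5 motor neuron genes 4 or 5, EB included, so that a covered window alone does not mark a motor neuron. The summed motor neuron windows were 4765 bp in EB, 3560 bp in progenitors, 4556 bp in no Dox, 2933 bp in iHoxc6, 1802 bp in iHoxc9 and 2581 bp in iHoxc10. The summed neural progenitor windows were 2468, 3961, 4711, 3917, 3175 and 3266 bp in the same order. Both sums were lower in the induced lists than in no Dox, as were most genes of the family. The part of these cell types in that was not tested. Of 5 genes of other lineages, 3 were covered in EB and progenitors, 1 in no Dox, 2 in iHoxc6 and 0 in iHoxc9 and iHoxc10, with Gata4 and Gata1 at 0 in all lists. The summed window of these genes was 2170 bp in EB and 317 bp in progenitors. This sum was lower in progenitors than in EB, as was covered length at most genes of the family. Whether EB held other cell types, and their part in that difference, was not tested. In such bulk samples, fewer cells of a type and less accessibility per cell cannot be told apart.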

How the data were processed

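ATAC-seq was performed on 12 samples in 6 groups. Per the labels and the published methods, Bowtie2 2.2.2 was used by the authors for mapping to mm10 and DomainFinder for calling accessible domains, and the submitters' processing notes name Picard 2.8.2. The deposited files give domain starts and ends in bp (other units: no count, signal or p-value), 1 list per group from both replicates. Read depth is unknown. The no Dox list has 3 additional constant columns and is named for a day that differs from its label, which was used. Starts were read as BED, and printed positions count from 1. Whether starts count from 0 was not given, which leaves an uncertainty of 1 bp.

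Genes were protein-coding genes of GENCODE M21 on GRCm38.p6, with 1 TSS each (the 5′ end of the gene). Sequences were read from the RefSeq copy of GRCm38.p6. Autosomal, X and Y domains were assigned to the gene with the nearest TSS and to every gene whose TSS window or body they overlapped. A domain could thus belong to several genes. The place of a domain was named in the order TSS window, gene body, distal. Shares carry 95% Wilson intervals, which cover counting only. Named sites were drawn from the widest TSS domain of each gene and the 2 widest distal regions of each class, and not all of these are reported here. Members and lists were chosen with earlier results of these data known. The assignment code was tested on simulated domains, and 0 of 300 assignments differed from a direct search. All domains of 200 genes were also removed from a copy of the no Dox list, and 200 of 200 losses were found. Complete removal fixes that outcome in advance, so it does not test the calling of 2-fold differences. Python 3.11.15, NumPy 2.4.6, SciPy 1.17.1, pysam 0.24.0, samtools 1.23.1 and Matplotlib 3.10.9 were used. Alternatives covered widths, list lengths, TSS choice, assignment, merging, window, fold, scaling and background.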

Additional observations from a re-analysis of the deposited data

How the results depend on the processing

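No paired analysis was possible because each group had 1 list made from both replicates, and for the same reason no replicate could be left out. Of 205 alternative values computed for 34 results, 173 stayed within the limit set for a change and 32 moved. With TSS windows of 5 kb, covered length was 15913 bp in EB, 12086 bp in progenitors, 25716 bp in no Dox, 16097 bp in iHoxc6, 11873 bp in iHoxc9 and 11859 bp in iHoxc10. With domains of at least 150 bp, the genes had 122, 85, 119, 106, 98 and 78 domains in that order, and with lists of equal length 154 in EB, 142 in progenitors, 152 in no Dox and 155 in iHoxc6. As a share of each list, 2 genes were higher in no Dox than in progenitors, 1 was higher and 2 were lower in iHoxc9 than in no Dox, and 0 were lower in iHoxc10. At a fold of 1.5, 3 were lower in progenitors than in EB, 4 in iHoxc6 and 8 in iHoxc10 than in no Dox. Against progenitors, an alternative added after the data had been seen, 1 was lower in iHoxc9 and 0 in iHoxc10. With lists of equal length, 0 were lower in progenitors than in EB. Shares of all genes are not given for scaling to the list, for a fold of 1.5, for induced lists against progenitors or for lists of equal length. These counts therefore have no background share, and the median ratio over all genes was already 0.70 in iHoxc10 against no Dox. With domains of at least 150 bp, 19 regions were in all 6 lists, 61 were induction-associated, 8 of these in 2 or 3 lists, and 27 opened at day 2. With lists of equal length, 29 were in all 6 lists and 183 were induction-associated. Fewer domains enter under both settings. Over all genes, scaling to the list moved the share of higher among called genes from 53.4 to 38.9% (progenitors against EB), 67.9 to 42% (no Dox against progenitors), 17.2 to 49% (iHoxc6), 1.54 to 29.9% (iHoxc9) and 2.58 to 29.5% (iHoxc10 against no Dox). The cause of these changes was not tested.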
